A study of Mus musculus with 4 samples.

Results

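The 41 genes described here run mitosis: they encode the cyclins and kinases that start it, the spindle and kinetochore proteins that move chromosomes, the ubiquitin machinery that ends it and the proteins that split the cell. They were taken by name from a table of 24497 mouse genes, and all 41 were found in it. RNA had been sequenced from mouse acute myeloid leukaemia cells, in 2 libraries labelled WT and 2 labelled Tet2 KO. The starting cells were stem cells from the bone marrow of donors that were either wild-type or Tet2 knockout. Both groups carried NRAS, an activated growth signal, and AE9a, a shortened form of the AML1-ETO fusion protein of human leukaemia, and had grown in medium with SCF, IL-3, IL-6, G418 and puromycin. They were then transplanted into CD45.1 recipients 6 to 8 weeks old that had been irradiated with 900 cGy, and spleen cells bearing CD45.2, the donors' version of CD45 on the cell surface, were enriched. The labels do not say how the Tet2 allele was made, nor whether a group's libraries stem from different mice. The p-values therefore measure only a spread between libraries that may be technical.

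A cell enters mitosis when cyclin-dependent kinase 1, bound to a B-type cyclin, is switched on by a CDC25 phosphatase. Chromosomes then attach to the spindle under the watch of a checkpoint, and once all are attached the anaphase-promoting complex (APC/C), a ubiquitin ligase, marks securin and B-type cyclins for destruction. Transcription of most of these genes is low in resting cells and peaks in G2 and mitosis, so in a mixed sample their RNA is widely read as a marker of dividing cells. In RNA from bulk samples, fewer cells of a type and less RNA per cell cannot be told apart.

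Promoters of such genes are known for 2 short elements, the CHR (TTTGAA), bound by the MuvB complex, and the CCAAT box, bound by NF-Y. RefSeq promoter windows (build GRCm38.p6, 250 bases before to 50 after the start) were found for 34 of the 41 members, with 2 starts each for Prc1 and Ect2. TTTGAA, on either strand, stood in the windows of 25 of these 34 genes (73.5%), against 20.2% of all 27025 genes with a window and 14.5% of those among the tested genes. CCAAT, on either strand and with overlapping matches counted separately, stood in 26 (76.5%), against 41.1% of all genes and 43.1% of tested genes. Both elements were present in 22 members (64.7%), compared with 7.97% of all genes. Matching letters are a description of the sequence and not a measure of binding.

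The 150 bases before the start are shown for 6 members, chosen after their values were seen, with matches to either element in capitals. Cdc20, Ube2c, Ccnb2 and Cdk1 are among the genes that rose, and Espl1 carried both elements and did not pass the test. Pttg1, the only member that fell, had neither in its window. That window (chr11:43425932-43426231) lies inside the annotated gene, whose 5′ end is at 43426251 in GENCODE M21. Sequence upstream of that end was not searched. The sequences run 5′ to 3′ on the gene's strand.
Cdc20 (chr4:118437344-118437493, minus strand): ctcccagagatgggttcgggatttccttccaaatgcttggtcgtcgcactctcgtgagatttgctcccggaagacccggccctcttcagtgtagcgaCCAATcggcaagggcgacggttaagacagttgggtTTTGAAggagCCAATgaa
Ube2c (chr2:164769779-164769928, plus strand): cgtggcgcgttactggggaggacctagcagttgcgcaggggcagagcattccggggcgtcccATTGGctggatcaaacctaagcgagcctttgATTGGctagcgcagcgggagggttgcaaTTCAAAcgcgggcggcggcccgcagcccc
Ccnb2 (chr9:70421555-70421704, minus strand): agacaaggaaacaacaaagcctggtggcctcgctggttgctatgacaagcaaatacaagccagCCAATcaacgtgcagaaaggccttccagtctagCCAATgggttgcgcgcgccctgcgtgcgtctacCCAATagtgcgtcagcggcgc
Cdk1 (chr10:69352913-69353062, minus strand): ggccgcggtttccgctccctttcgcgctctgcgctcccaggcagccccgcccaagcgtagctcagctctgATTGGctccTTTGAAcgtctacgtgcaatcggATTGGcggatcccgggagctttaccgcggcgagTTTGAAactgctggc
Espl1 (chr15:102296143-102296292, plus strand): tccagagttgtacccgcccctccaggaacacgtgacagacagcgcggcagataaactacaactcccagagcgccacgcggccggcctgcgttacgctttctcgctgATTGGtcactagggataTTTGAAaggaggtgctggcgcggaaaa
Pttg1 (chr11:43425982-43426131, minus strand): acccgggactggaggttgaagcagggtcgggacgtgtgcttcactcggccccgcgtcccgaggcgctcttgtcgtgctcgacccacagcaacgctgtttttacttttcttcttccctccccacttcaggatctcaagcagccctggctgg
In Ccnb2 the CCAAT boxes begin 87, 54 and 21 bases before the start, and a TTTGAA begins 4 bases after it. Of the members that rose and had a window, 22 of 27 held TTTGAA and 22 of 27 held CCAAT. Of the other members with a window, Pttg1 among them, 3 of 7 and 4 of 7 did. Bub1, Mad2l1, Ttk and Nusap1 are also among these 7. They were higher in both Tet2 KO libraries than in WT but did not pass the test. The difference in shares was not tested. The windows of Cdca3, Cdca8, Kif2c and Kif4, like that of Pttg1, lie inside their annotated genes and are part of these counts.

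**Figure D1:**
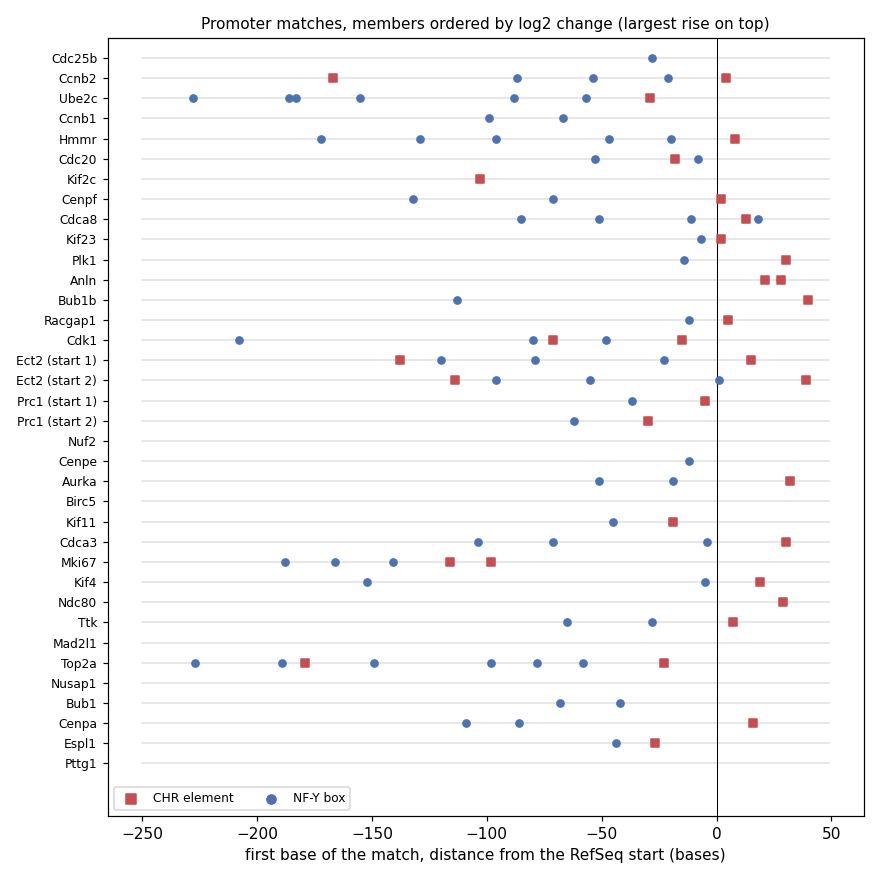
Matches to the CHR element (red squares) and the NF-Y-bound CCAAT box (blue circles) in 36 promoter windows of 34 members, by distance in bases from the RefSeq start; genes are ordered by log2 change, largest rise on top. Matches to the CHR element lie mostly close to the start, within 50 bases of it in 23 of the 34 genes. Pttg1, whose window lies inside its annotated gene, has no match to either.

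Values are TPM, a transcript level per length scaled to a fixed total per library, so that genes can be compared within a library. Each library summed to about 1000000, with an approximate depth of 22.2 to 28.1 M reads (M, 10 to the power 6) estimated from low values. The WT libraries differed by little more than read sampling (variance 1.09 times that of sampling, robust estimate over 1972 genes, 16 of them beyond 5 SD) and were counted as 1 sample; for Tet2 KO the variance was 5.77 times that of sampling. Tet2 RNA itself was higher, not lower, in Tet2 KO (63.7 and 68.1 TPM, against 43.5 and 43.7 TPM in WT); a whole-gene value does not show a deleted exon, so directions rest on the labels. ERCC spike-ins, synthetic RNAs added to each sample, made up 4.66% and 4.62% of the WT libraries and 2.95% and 3.19% of Tet2 KO. Xist, the RNA of the inactive X chromosome, separated the libraries too, with 0.34 TPM in each WT library but 86.1 and 28.2 TPM in Tet2 KO replicates 1 and 2. The leukocyte gene Ptprc, which encodes CD45, was at 292 TPM or more in each library, and Runx1t1, the partner present in AE9a, was at 31.6 and 30.9 TPM in WT compared with 146 and 205 TPM in Tet2 KO.

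In the Tet2 KO libraries 32 of the 41 mitosis genes rose, 1 fell and 8 did not pass the test (limma adjusted p under 0.05, Benjamini-Hochberg over 11919 genes). The background was high: 22.1% of all tested genes were called higher and 26.7% lower. The members' median log2 change was 1.10, on the log2(TPM + 1) scale, which understates the change of low genes, beside a median of -0.12 over all genes tested. A log2 change above 1 with a call was seen in 27 of the 41, against 14.2% of all genes tested. All 41 passed the filter on low values (1 TPM in 2 libraries), and none overlapped between the groups: 38 were higher in both Tet2 KO libraries than in both WT libraries and 3 were lower, shares of 38.4% and 48.7% over all genes tested. The summed level of the 41 was 877 and 887 TPM in WT compared with 1472 and 2015 TPM in Tet2 KO.

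**Figure D2:**
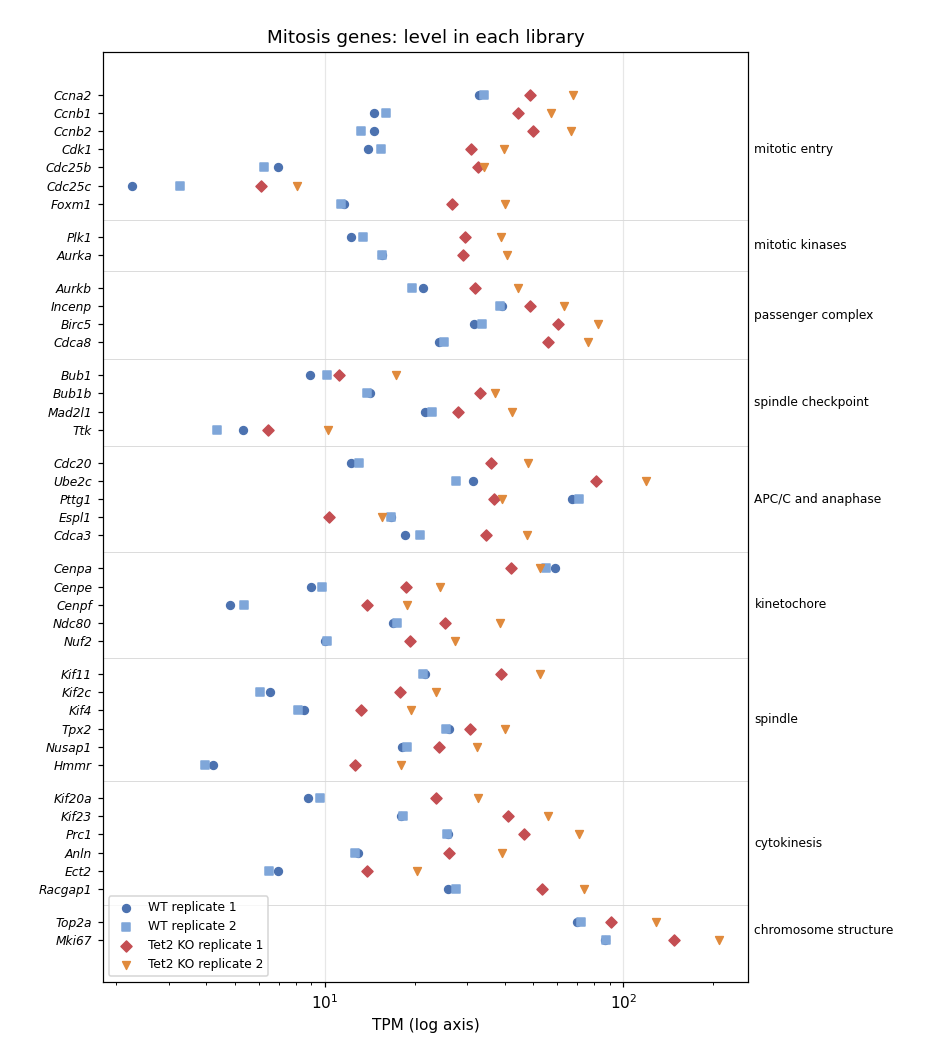
TPM (log axis) of each of the 41 mitosis genes in the 4 libraries, grouped by role. The WT points nearly coincide for most genes, and lie farthest apart for Cdc25c, with a ratio of 1.44. Of the 41 genes, 38 have both Tet2 KO points to the right of WT, and Pttg1, Espl1 and Cenpa have both to the left.

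The scale of the rise depended on the reference. Scaled to the ERCC total, 38 members were higher and 0 lower, their median was 1.67, while the median over all genes shifted from -0.12 to 0.43, with 41.5% of genes called higher and 12.5% lower. The members' median lay above that of all genes on either scale. Without the filter on low values, 0 of 41 members passed (smallest adjusted p = 0.0552; 4 higher and 1 lower at an unadjusted p under 0.05), and of all 18594 genes then tested 0.662% were called higher and 1.59% lower.

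The genes of mitotic entry rose, 7 of 7. Cdc25b, a phosphatase that activates CDK1, had the largest rise of all members, with a log2 change of 2.17 ± 0.24 (SE; adjusted p = 1.78e-06). Its level was 6.96 and 6.24 TPM in WT compared with 32.6 and 34.0 TPM in the Tet2 KO libraries. The Tet2 KO libraries nearly coincided for this gene, at a mean 5.05 times that of WT. The B-type cyclins followed: Ccnb2 (chromosome 9, 70407692 to 70421547, minus strand, mm10) was at 14.7 and 13.2 TPM in WT compared with 49.6 and 66.8 TPM in Tet2 KO, a change of 1.97 ± 0.22 (adjusted p = 4.23e-06). Ccnb1 was at 14.6 and 16.02 TPM in WT compared with 44.4 and 57.2 TPM in Tet2 KO, a change of 1.66 ± 0.22. Ccnb1 has 4 annotated pseudogene copies, the closest with 99.2% identity over 1287 bases, so its reads could be shared with them.

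Their partner Cdk1, the kinase itself, went from 14.0 and 15.5 TPM to 30.9 and 39.9 TPM (1.20 ± 0.23). Ccna2, the A-type cyclin that acts from S phase until mitotic entry, was already the most abundant cyclin of the list in WT. It moved less, from 32.9 and 34.1 TPM to 48.7 and 68.0 TPM (0.76 ± 0.22, adjusted p = 0.0113), a call lost with quantile normalization and without the variance trend and robust estimation. The ratio of Ccnb1 to Ccna2 was thus 0.443 and 0.469 in the WT libraries and 0.913 and 0.841 in the Tet2 KO libraries. Multiplying a library by a constant does not change this ratio. Cdc25c, the low-level relative of Cdc25b, was at 2.26 and 3.26 TPM in WT compared with 6.13 and 8.05 TPM in Tet2 KO (1.10 ± 0.31). It shares 623 identical bases with the predicted gene Gm3550, which makes its level uncertain. Foxm1, a transcription factor that binds many G2/M promoters, stood at 11.6 and 11.4 TPM in WT compared with 26.7 and 40.3 TPM in Tet2 KO (1.44 ± 0.26). Its exons overlap those of Tex52 by 144 bases and of Gm44596 by 97, on the same strand, so strand cannot separate those reads.

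Both mitotic kinases outside the complexes below rose. Plk1, which drives centrosome maturation and mitotic entry, was at 12.2 and 13.4 TPM in WT compared with 29.6 and 39.0 TPM in Tet2 KO (1.34 ± 0.24). Aurka, the centrosome and spindle kinase, was at 15.6 TPM in each WT library compared with 29.0 and 40.9 TPM in Tet2 KO (1.10 ± 0.24). Its activator at the spindle, Tpx2, did not pass, with 26.03 and 25.5 TPM in WT compared with 30.6 and 40.1 TPM in Tet2 KO (0.43 ± 0.22, adjusted p = 0.127). The ratio of Aurka to Tpx2 was 0.597 and 0.611 in WT and 0.949 and 1.02 in Tet2 KO.

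Of the chromosomal passenger complex, which corrects wrong attachments and later marks the division plane, 3 of 4 subunit genes rose. Cdca8, which encodes borealin, went from 24.2 and 25.1 TPM to 55.9 and 76.3 TPM (1.37 ± 0.21), and Birc5, which encodes survivin, from 31.7 and 33.7 TPM to 60.5 and 82.4 TPM (1.09 ± 0.21). The kinase Aurkb changed by 0.84 ± 0.23. The scaffold Incenp was at 39.4 and 38.6 TPM in WT compared with 48.6 and 63.2 TPM in Tet2 KO and did not pass (adjusted p = 0.0583). The complex's subunits therefore differed in ratio: Cdca8 to Incenp was 0.614 and 0.651 in WT and 1.15 and 1.21 in Tet2 KO.

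The spindle checkpoint was the role with the fewest calls, 1 of 4. Bub1b, which encodes the checkpoint protein BubR1, rose from 14.2 and 13.8 TPM to 33.1 and 37.1 TPM (1.26 ± 0.22, adjusted p = 0.000220). Its relative Bub1, a checkpoint kinase, was at 8.94 and 10.2 TPM in WT compared with 11.2 and 17.3 TPM in Tet2 KO (adjusted p = 0.184). Mad2l1, which encodes the MAD2 protein that holds the APC/C in check, had a change of 0.61 ± 0.26 (adjusted p = 0.0701), and the kinase gene Ttk one of 0.65 ± 0.33 (adjusted p = 0.113). All 4 were higher in both Tet2 KO libraries than in WT, as were 38.4% of all genes tested. Bub1, Mad2l1 and Ttk had ratios of 1.54, 1.52 and 1.59 between the Tet2 KO libraries, near the upper end of the members. With ERCC scaling, which called 41.5% of all genes tested higher, these 3 passed too.

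The next group of 5 holds the APC/C coactivator, its ubiquitin-conjugating enzyme, securin, separase and Cdca3. Of these, 3 rose and 1 fell on the TPM scale. Cdc20, the coactivator that the checkpoint restrains (chromosome 4, 118432901 to 118437352, minus strand, mm10), was at 12.2 and 13.0 TPM in WT compared with 35.98 and 48.1 TPM in Tet2 KO (1.65 ± 0.23, adjusted p = 3.60e-05). Ube2c, the ubiquitin-conjugating enzyme of the APC/C, was at 31.4 and 27.6 TPM in WT compared with 80.9 and 119 TPM in Tet2 KO (1.70 ± 0.23), and Cdca3, linked to removal of the mitotic brake Wee1, changed by 1.01 ± 0.23. The ratio of Cdc20 to the checkpoint gene Mad2l1 was 0.564 and 0.571 in WT and 1.29 and 1.14 in Tet2 KO. The other checkpoint genes Bub1b, Bub1 and Ttk changed by 1.26, 0.50 and 0.65, so such a ratio depends on the gene chosen.

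Pttg1 and Espl1 form the pair at the anaphase switch: securin holds separase inactive until the APC/C destroys it. Pttg1, which encodes securin (chromosome 11, 43420250 to 43426251, minus strand, mm10), was at 67.1 and 70.8 TPM in WT compared with 37.0 and 39.1 TPM in Tet2 KO. It fell by 0.84 ± 0.19 on the log2 scale (adjusted p = 0.00181), and the Tet2 KO libraries differed less for it than for most members, with a ratio of 1.06. With ERCC scaling its change was -0.26 (adjusted p = 0.215), so the call was lost while the direction held. Espl1, separase, was at 16.6 and 16.7 TPM in WT compared with 10.3 and 15.5 TPM in Tet2 KO, a change of -0.37 ± 0.29 that did not pass (adjusted p = 0.313) and that became 0.19 with ERCC scaling. The ratio within the pair, Pttg1 to Espl1, moved less, from 4.04 and 4.25 in WT to 3.58 and 2.52 in Tet2 KO. Set beside Cdc20, its trigger, Pttg1 was 5.50 and 5.44 times as abundant in the WT libraries and 1.03 and 0.813 times in the Tet2 KO libraries. Relative to Mki67 it stood at 0.773 and 0.811 in WT and at 0.250 and 0.187 in Tet2 KO.

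**Figure D3:**
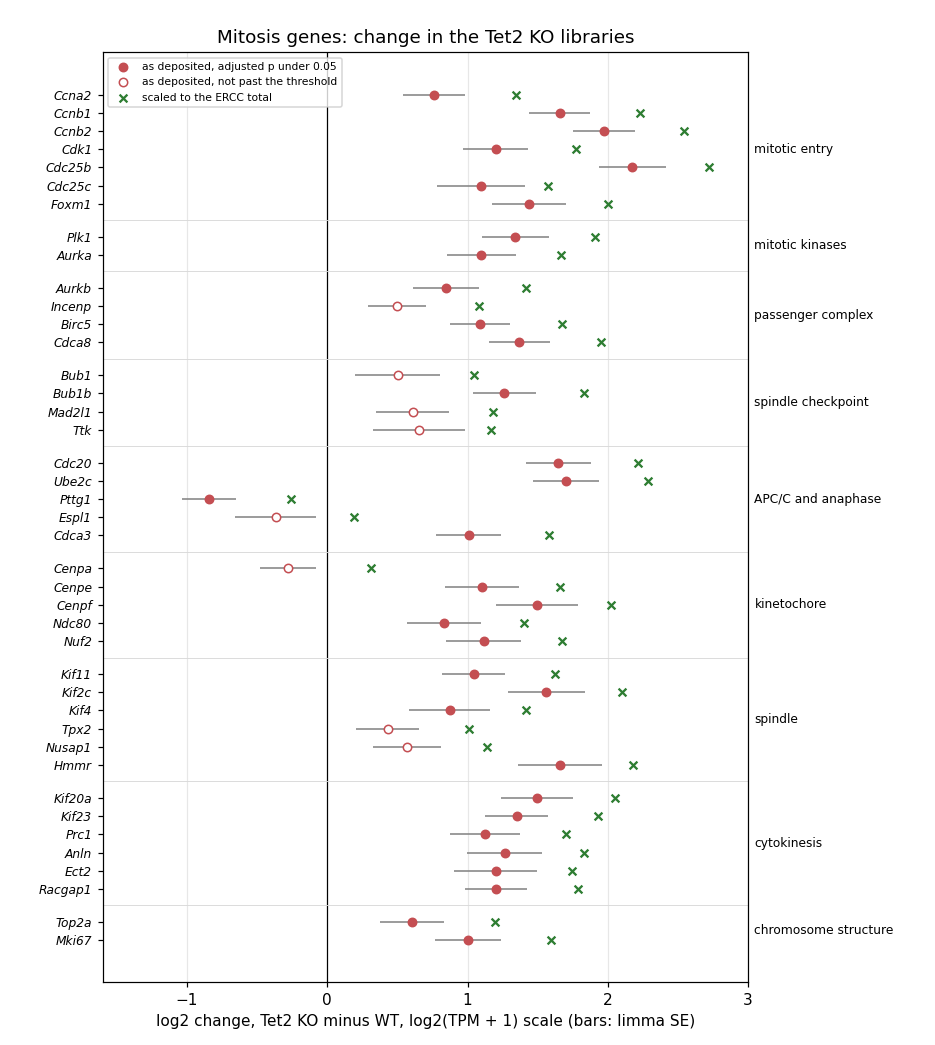
Log2 change, Tet2 KO minus WT, of each member with its limma SE (circles; filled where adjusted p is under 0.05) and the change after scaling to the ERCC total (green crosses), grouped by role. ERCC scaling moves each member to the right, and only Pttg1 remains below 0, at -0.26.

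Of the centromere and kinetochore genes 4 of 5 rose. Cenpf, an outer kinetochore protein, went from 4.80 and 5.37 TPM to 13.8 and 18.8 TPM (1.49 ± 0.29), and Cenpe, a kinesin that carries chromosomes to the spindle equator, from 8.99 and 9.79 TPM to 18.6 and 24.3 TPM (1.10 ± 0.26). Nuf2 and Ndc80, subunits of the complex that grips microtubules, changed by 1.12 ± 0.27 and 0.83 ± 0.26 (adjusted p = 0.00319 and 0.0213). The call of Ndc80 was lost with quantile normalization and without trend and robust estimation. Cenpa, the histone variant that marks the centromere, did not follow them: it was at 58.9 and 55.3 TPM in WT compared with 42.0 and 52.4 TPM in Tet2 KO. Its change was -0.28 ± 0.20 (adjusted p = 0.267), or 0.31 with ERCC scaling. In WT it was the fourth most abundant member, and its ratio to Ndc80 was 3.48 and 3.17 there against 1.66 and 1.35 in Tet2 KO.

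Among spindle motors and microtubule binders 4 of 6 rose. Hmmr, a spindle pole protein that is also a hyaluronan receptor, was at 4.23 and 3.96 TPM in WT compared with 12.7 and 17.9 TPM in Tet2 KO (1.66 ± 0.30). The motors followed: Kif2c, which takes microtubules apart at centromeres, changed by 1.56 ± 0.27, Kif11, which pushes spindle poles apart, by 1.04 ± 0.22, and Kif4, a chromosome-bound motor, by 0.87 ± 0.29. Nusap1, which bundles spindle microtubules, was at 18.1 and 18.8 TPM in WT compared with 24.03 and 32.3 TPM in Tet2 KO and did not pass (adjusted p = 0.0634), like Tpx2. Kif4 lost its call without trend and robust estimation, and it shares 753 exonic bases with Pdzd11 on the opposite strand.

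All 6 cytokinesis genes rose, within a narrow band of log2 change from 1.12 to 1.49. Kif20a and Kif23, kinesins of the central spindle, were at 8.79 and 9.62 TPM and at 18.1 and 18.3 TPM in WT. In Tet2 KO they reached 23.6 and 32.6 TPM and 41.2 and 55.9 TPM. Racgap1, which pairs with Kif23 in the centralspindlin complex, went from 25.9 and 27.4 TPM to 53.2 and 73.9 TPM (1.20 ± 0.22). Ect2, the RHOA activator that Racgap1 recruits, changed by 1.20 ± 0.29, Anln, which encodes the ring protein anillin, by 1.26 ± 0.26 and Prc1, which crosslinks central spindle microtubules, by 1.12 ± 0.25. None of these 6 calls was lost under any alternative other than the absence of a filter. The exons of Kif20a overlap those of Cdc23 on the opposite strand by 1271 bases, and those of Prc1 overlap Rccd1 by 670, so their reads can be told apart only if strand was used in counting. The library kit keeps strand, but the counting setting is not given. Shorter overlaps of this kind, from 53 bases (Cdc20 with Elovl1) to 592 (Ube2c with Tnnc2), affect Ccna2, Cdc25b, Nusap1 and Plk1 as well.

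The 2 most abundant members in WT, Mki67 and Top2a, act on chromosome structure. Mki67, the proliferation marker Ki-67 that coats mitotic chromosomes, was at 86.8 and 87.3 TPM in WT compared with 148 and 209 TPM in Tet2 KO (1.01 ± 0.23, adjusted p = 0.00294; 0.0505 with quantile normalization, where the call was lost). Top2a, topoisomerase II alpha, which untangles sister DNA, was at 70.0 and 71.96 TPM in WT compared with 91.1 and 129 TPM in Tet2 KO. Its change of 0.60 ± 0.23 lay just past the threshold (adjusted p = 0.0428) and was lost with a pseudocount of 5, with quantile normalization and without trend and robust estimation.

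The Tet2 KO libraries differed from each other in the same direction for every member. All 41 were higher in replicate 2 than in replicate 1, where 65.2% of all genes tested were, with ratios from 1.04 (Cdc25b) to 1.59 (Ttk) and a median of 1.37. On the log2 scale the members' median difference between these libraries was 0.44, beside 0.10 over all genes tested, and 39 of 41 remained higher in replicate 2 on ERCC scaling. In the WT libraries the larger value exceeded the smaller by a median ratio of 1.06, and 23 of 41 were higher in replicate 2. With either Tet2 KO library left out, the spread came from the WT pair alone, which differed by little more than read sampling, so the p-values of these fits are too small and their calls are not a test of the genotype. With replicate 1 as the lone Tet2 KO library, 36 members were past the threshold as higher and 3 as lower (background 33.3% and 47.6%), and with replicate 2, 38 and 1 (background 36.3% and 41.8%).

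**Figure D4:**
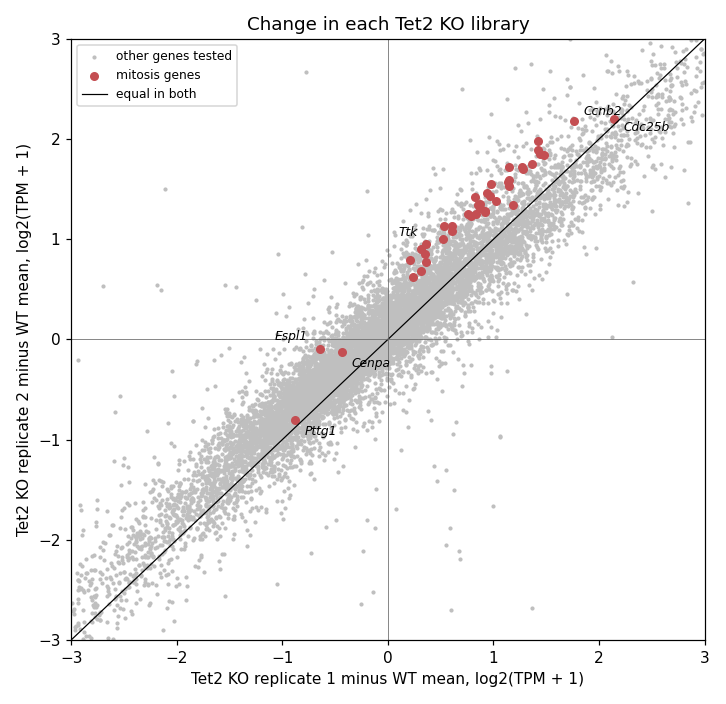
Change from the WT mean, on the log2(TPM + 1) scale, in Tet2 KO replicate 1 (x axis) and replicate 2 (y axis) for the mitosis genes (red) and the other genes tested (grey; genes beyond 3 in either direction are not drawn). All 41 red points lie above the line of equality, Cdc25b closest to it among those that rose.

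Markers of several blood cell types moved with the labels. Genes of the primary granule stage, at which precursors still divide, rose in 6 of 6 cases, with a summed level of 75.9 and 77.0 TPM in WT compared with 805 and 989 TPM in Tet2 KO. Those of the mature neutrophil, a cell that no longer divides, rose in 5 of 6, from 1326 and 1351 TPM to 86544 and 69370 TPM. Between the Tet2 KO libraries, 5 of 6 primary granule genes were higher in replicate 2, beside 65.2% of all genes tested. In replicate 1, 6 of 6 mature neutrophil genes were higher, as were 4 of 5 genes of the secondary granule stage of granulocytes. All 3 tested genes of mast cells and basophils rose, and the list of 5 summed to 3.59 and 4.14 TPM in WT, with 164 and 167 TPM in Tet2 KO. Monocyte and macrophage genes fell in 5 of 7 cases, from a sum of 2601 and 2609 TPM to 1623 and 1620 TPM. Dendritic cell genes fell in 5 of 5 tested cases, with the sum of all 7 going from 361 and 366 TPM to 61.1 and 41.9 TPM. On the TPM scale, lists of mast cells and of late granulocytes were thus higher in Tet2 KO, and those of the monocyte and dendritic lines lower. With ERCC scaling the median log2 change was 4.61 for the mast cell list and 6.46 for mature neutrophils. For monocytes and macrophages it shrank from -0.85 to -0.25, and for dendritic cells it went from -1.25 to -1.10. The 8 erythroid genes, of which 2 of 3 tested rose, summed to 4.10 and 2.44 TPM in WT, with 25.1 and 47.6 TPM in Tet2 KO, and Hbb-bs was listed at 0 throughout and Klf1 never above 0.20 TPM. Of 5 tested genes of stem and progenitor cells, 2 rose while 3 fell, and the list of 7 summed to 160 and 159 TPM in WT, with 39.0 and 42.6 TPM in Tet2 KO. The part of these cells in the mitosis result was not tested.

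Other cell cycle genes were read from lists beside the members, each against the same background of 22.1% higher and 26.7% lower. Of 34 further kinetochore and checkpoint genes 15 rose and 1 fell (median 0.66). Hjurp, the chaperone that loads CENP-A, rose from 5.99 and 5.85 TPM to 15.6 and 17.8 TPM, while Cenpa itself did not pass. Zwint, a kinetochore protein, fell by 0.54 ± 0.19 (adjusted p = 0.0265). With ERCC scaling its change was positive, at 0.05, and neither that scaling nor median centring gave a call. Of 28 further spindle and cytokinesis genes 20 rose and 0 fell (median 0.88), such as Depdc1a at 1.82 ± 0.30 and the spindle pole gene Aspm at 1.39 ± 0.29. Condensin and cohesin, which shape chromosomes and hold sisters together, had 7 of 20 higher and 0 lower; those with the smallest p were Ncapd3 and Ncapg2 (0.90 ± 0.24 and 0.85 ± 0.23).

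The APC/C's own subunits, unlike its coactivator Cdc20 and its enzyme Ube2c, had few calls. Of 17 subunits and regulators 1 rose and 1 fell, with a median of 0.07, or 0.66 with ERCC scaling. The inhibitor Fbxo5, also known as EMI1, rose by 0.91 ± 0.29 (adjusted p = 0.0248; 0.0628 with quantile normalization). The subunit Anapc1 fell by 0.70 ± 0.22 (adjusted p = 0.0136), with a change of -0.12 and no call on ERCC scaling. Among 10 partners and brakes of CDK1, 4 rose and 0 fell: the CDK1-binding gene Cks2 was at 72.8 and 75.2 TPM in WT compared with 315 and 320 TPM in Tet2 KO (2.09 ± 0.21), and cyclin F, Ccnf, rose by 1.64 ± 0.22. The others that rose, named after their values were seen, were Wee1, the kinase that holds CDK1 off (1.15 ± 0.30), and Cks1b (0.78 ± 0.24), whose call was lost with quantile normalization. Of 15 genes of the DREAM and MuvB complexes, which repress or activate G2/M promoters, 4 rose and 2 fell, with a median of 0.04, or 0.55 with ERCC scaling. The activator Mybl2 rose by 1.12 ± 0.24 and the MuvB subunit Lin54 by 0.93 ± 0.24, whereas E2f5 fell by 1.77 ± 0.29. Tfdp1, the partner of E2F factors, and the kinase gene Dyrk1a, also named after their values were seen, rose by 0.73 ± 0.20 and 0.66 ± 0.19. Lin9, another MuvB subunit, fell by 0.76 ± 0.28 (adjusted p = 0.0363), a call lost on ERCC scaling (change -0.20) and with quantile normalization.

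Upstream of mitosis, the D-type cyclins, which take cells through G1, moved in opposite directions. Ccnd1 was at 356 and 357 TPM in WT compared with 8.26 and 12.8 TPM in Tet2 KO (-4.98 ± 0.25, adjusted p = 1.52e-08). Ccnd2 was at 263 and 264 TPM in WT compared with 19.3 and 17.6 TPM in Tet2 KO (-3.77 ± 0.19). Ccnd3 was at 25.3 and 26.7 TPM in WT compared with 202 and 189 TPM in Tet2 KO (2.87 ± 0.20), so that Ccnd3, the lowest of these cyclins in WT, was the highest in Tet2 KO. These calls held on ERCC scaling, with changes of -4.42, -3.18 and 3.45. Of the 14 G1 cyclins, CDKs and E2F factors 8 rose, Cdk2 among them (1.52 ± 0.19), and 3 fell, the third being Cdk6, a partner of D-type cyclins that was named after its value was seen (-1.42 ± 0.20).

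CDK inhibitors, which stop the cycle, had 1 of 7 higher and 3 lower. Cdkn2a and Cdkn2b fell by 3.29 ± 0.31 and 2.44 ± 0.29, from 21.4 and 24.8 TPM and from 11.2 and 9.09 TPM to at most 1.63 TPM. Cdkn1a, which encodes p21 and is named here after its values were seen, was at 1121 and 1097 TPM in WT compared with 186 and 265 TPM in Tet2 KO (-2.32 ± 0.26). Cdkn2d rose by 1.05 ± 0.20. DNA replication genes, active in the S phase before mitosis, had 3 of 24 higher and 0 lower, with a median of 0.37 (0.93 on ERCC scaling). The licensing factor Cdt1 was at 30.8 and 25.7 TPM in WT compared with 87.5 and 91.5 TPM in Tet2 KO (1.63 ± 0.19), and its inhibitor Gmnn rose by 0.77 ± 0.25, a call lost with quantile normalization. So was that of the third, Rrm2, a ribonucleotide reductase subunit named after its value was seen (0.96 ± 0.29). The difference between the mitosis and replication genes was not tested.

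**Figure D5:**
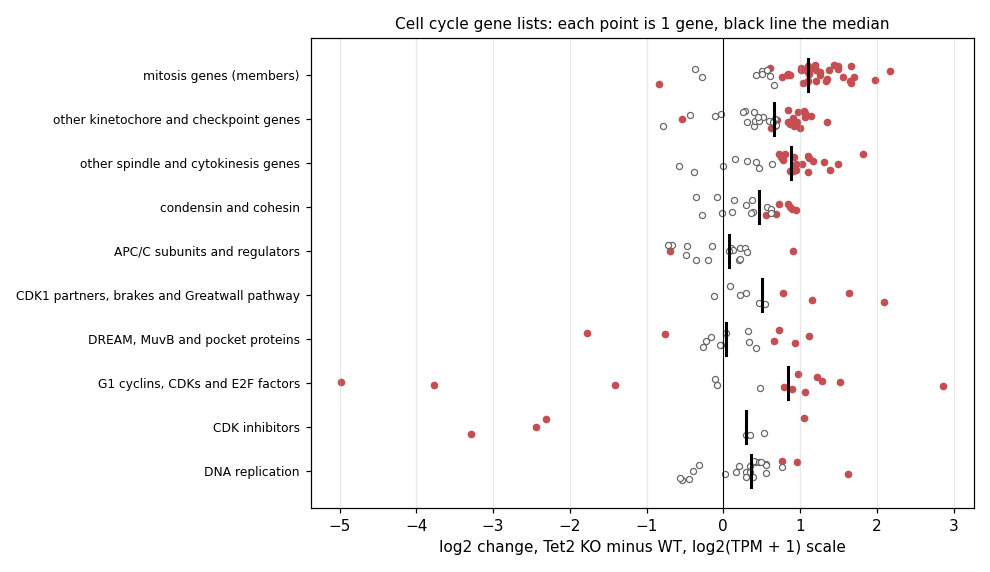
Log2 change, Tet2 KO minus WT, of each tested gene (points; red where adjusted p is under 0.05) in the mitosis genes and 9 other cell cycle lists, with the list's median as a black line. The mitosis genes have a median of 1.10, the replication genes 0.37, and Ccnd1 lies farthest to the left, at -4.98.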

How the data were processed

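Messenger RNA was sequenced in 4 libraries, 2 labelled WT and 2 Tet2 KO. Levels are TPM as deposited by the authors; per the submitters' processing notes, which give no versions, STAR, RSEM and mm10 were used, and the annotation behind the TPM is not given. The 92 ERCC rows were left out of the tests. Depth was estimated from the low TPM of genes with 1 transcript of 600 to 2500 bases (GENCODE M21 basic set, length minus 200): between 67.5% and 71.4% came within 0.2 of a whole number of reads. The WT libraries were averaged as 1 sample and set against 2 Tet2 KO samples, which leaves 1 residual degree of freedom, on the assumption that WT varies as Tet2 KO does. Two-sided tests used limma 3.58.1 (R 4.3.3) and values of log2(TPM + 1), variance trend and robust estimation, for 11919 genes with at least 1 TPM in at least 2 libraries; p-values were adjusted by Benjamini-Hochberg over all of them. The test was tried on simulated data with known changes in a small set of genes and the same noise in all 4 libraries. Here the Tet2 KO libraries varied more than the WT libraries, so that trial does not check the test under unequal spread. Alternatives changed the pseudocount, the filter, the scaling, the variance model, the treatment of WT and the libraries used. Gene positions are from GENCODE M21 (mm10), counted from 1; copies of members were sought with BLAST 2.17.0 at 95% identity over at least 200 bases. All members are reported; from each other cell cycle list up to 2 genes with the smallest p in each direction are named. The members and lists were chosen with earlier results of these data known.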

Additional observations from a re-analysis of the deposited data

How the results depend on the processing

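Over 14 alternatives, the number of members called higher stayed between 28 and 38, except without the filter on low values, where 0 were higher and 0 lower, with 123 and 295 of all genes called. The cause was not tested. ERCC scaling gave 4942 higher and 1492 lower over all genes, 0 members lower and a members' median of 1.67. It multiplies each library by a constant and raised the change of every member. Those of Espl1 and Cenpa, not called on either scale, became 0.19 and 0.31. Why the ERCC share differed between the groups was not tested. Leaving out 1 library moved all genes called higher between 2651 and 4321 and lower between 3192 and 5674, members called lower between 1 and 3, and the members' median between 0.88 and 1.34; where a Tet2 KO library was left out, both WT libraries were taken as samples and alone set the spread. Outside the absence of a filter, 27 members were called higher in every alternative. With both WT libraries as samples 3520 genes were higher and 4517 lower, and 34 members higher. A replicate block on those libraries gave 3495, 4461 and 38, with 1 member lower. The libraries share only a number: deviations of same-numbered libraries had a correlation of -0.011 over 11919 genes. TPM does not give the counting error of a gene directly, and 2 libraries a group limit the precision of each SE.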
